A study of Homo sapiens with 8 samples.

Results

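Among the human genes with ZNF symbols, 140 were well expressed in both cell lines studied, reading 4 FPKM or more in each library, and these 140 are described here. They were selected on their measured levels: a symbol of ZNF followed by a number and at most 1 letter was kept when none of the 8 libraries fell below the floor of 4 FPKM. FPKM is a fragment count scaled by transcript length and by the size of the library. The tables listed 19952 symbols, of which 505 were ZNF symbols. Of these, 200 stayed under 4 FPKM in every library, 16 of them at 0 throughout, and 165 reached the floor in some libraries but not in all. Just inside the floor were ZNF260, ZNF773 and ZNF212, with lowest values of 4.061, 4.068 and 4.107 FPKM. Just outside were ZNF791, ZNF646 and ZNF48, with lowest values of 3.99, 3.93 and 3.911 FPKM. Because levels chose the genes, their levels are given as a description with no test, and because the floor had to hold in every group, it also removed genes that fell far in 1 group.

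ZNF genes encode proteins with arrays of classical zinc fingers, small zinc-binding folds that each read a few bases of DNA and that together recognise a longer site. A large share of the family also carries a KRAB domain, which recruits the corepressor TRIM28 and, through it, the histone methyltransferase SETDB1 and heterochromatin proteins. KRAB zinc finger proteins are best known for silencing transposable elements, and many of their genes lie in tandem clusters on chromosome 19 that arose by repeated duplication. Members without KRAB serve more varied roles, from transcription complexes to ribosome assembly, RNA binding and mitosis.

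The 8 libraries came from 92.1 and MEL290, both human uveal melanoma cell lines, with 2 libraries in each of 4 groups. In 92.1, cells with the control vector (shCtrl, an empty vector per the study's methods) were compared with cells carrying a short hairpin RNA against the cytidine deaminase APOBEC3B (shA3B). In MEL290, control cells (NC) were compared with a stable line overexpressing full-length APOBEC3B from a lentiviral vector (A3B OE). All cells were grown in the same medium, the hairpin and the A3B vector were delivered by lentivirus with puromycin selection, and whether the stable lines were clones or pools is not given in the sources used here. The labels do not say that the 2 libraries of a group came from separate cultures, so P values measure only the spread between these libraries. APOBEC3B stood at 35.9 and 32.3 FPKM in shCtrl and at 1.98 and 2.37 in shA3B, and at 2.67 and 2.19 in NC and 28.4 and 27.5 in A3B OE, as labelled. The 7 melanocyte markers checked summed to between 7120 and 8710 FPKM in the 92.1 libraries and to between 15.2 and 20.6 in the MEL290 libraries. In NC, 6 of these 7 markers were under 1 FPKM in both libraries and TYR was at 0, so the melanocytic label of MEL290 had little support in its marker genes, with MITF, at 13.7 to 19.6 FPKM, as the exception. Fibroblast markers summed to 5.57 to 7.88 FPKM in 92.1 and 44 to 60.7 in MEL290, there mainly from COL1A1 and PDGFRB. LUM went the other way, at 3.58 to 5.03 FPKM in 92.1 and at most 0.126 in MEL290. COL3A1 and DCN were at most 0.153 FPKM in every library, so the fibroblast markers did not move together. A smaller share of expressing cells and less RNA per cell cannot be told apart in bulk RNA.

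The 140 genes differed from the rest of the family in position and domains. Positions were taken from GENCODE 44 on GRCh38, the build named by the study. Chromosome 19 holds 243 of the 505 ZNF symbols, 48.1%, but 46 of the 140 well-expressed genes, 32.9%. Put the other way, 18.9% of the chromosome 19 ZNF symbols met the floor and 35.9% of those on other chromosomes did. A KRAB pattern was found in the translated transcript of 51 of the 140, 36.4%, and in 71.0% of the other ZNF genes. Within chromosome 19, 26 of the 46 genes carried it, and elsewhere 25 of 94 did. The pattern is fixed and can miss a KRAB domain. Genes said here to lack KRAB are those with no match, and some may carry the domain. The median number of finger patterns was 8, with 10 for the chromosome 19 genes and 7 for the others, and 11 among the ZNF genes that did not meet the floor. ZNF142 had the most, 36. In 5 genes (ZNF330, ZNF503, ZNF703, ZNF839 and ZNF720) no classical finger pattern was found, and 8 had 1. The floor also counted unequally in the 2 lines: 208 ZNF symbols held it in all 4 libraries of 92.1 and 175 in all 4 of MEL290. Of those on chromosome 19, 24 held it only in 92.1 and 24 only in MEL290, whereas on other chromosomes 44 held it only in 92.1 and 11 only in MEL290.

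Most of the genes were moderately expressed. Their mean over the 8 libraries ran from 4.8 to 78.2 FPKM with a median of 10.8. The mean reached 8 FPKM in 100 genes, 20 FPKM in 25 and 50 FPKM in 4. The median over the 140 genes lay between 9.57 and 11.5 FPKM in every library, against 19.4 to 21.2 FPKM for all 7673 symbols that met the same floor. Within a gene, the highest library exceeded the lowest by a median factor of 2.02. The steadiest, named after their values were seen, were ZNF384 (25.3 to 30.2 FPKM), ZNF574 (9.4 to 11.7) and ZNF281 (9.32 to 11.6). At the other end ZNF83 ranged from 5.2 to 45.3 FPKM. The ratio was over 4 in 9 genes and under 1.5 in 25.

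**Figure D1:**
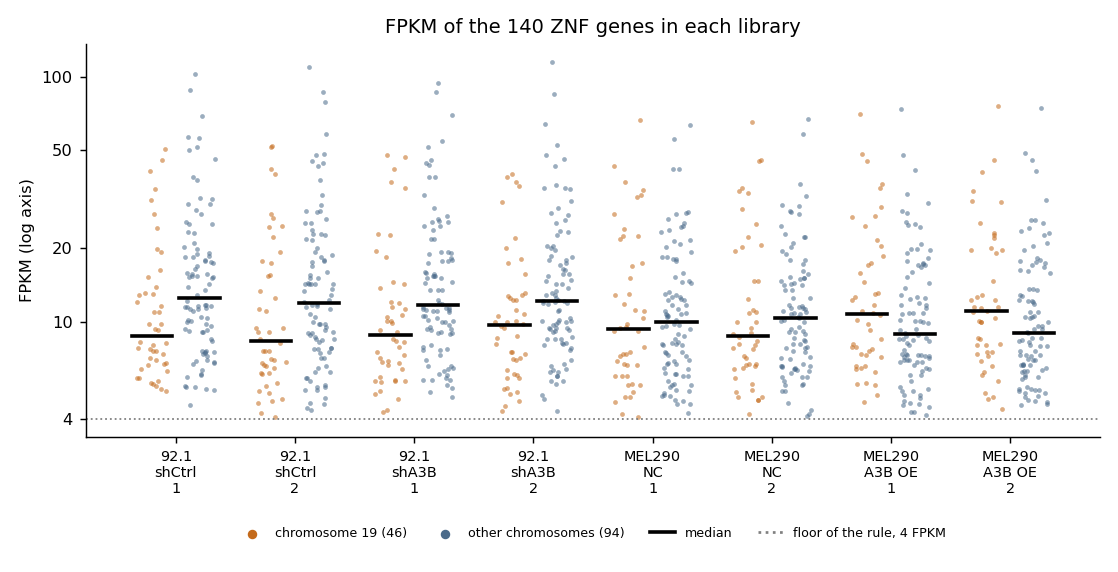
FPKM on a log axis for each of the 140 genes in each of the 8 libraries, with the 46 chromosome 19 genes in orange, the 94 others in blue, medians as bars and the floor of 4 FPKM dotted. The chromosome 19 median lies below the other median in the 92.1 and NC libraries (8.35 to 9.7 against 9.99 to 12.5 FPKM) and above it in both A3B OE libraries (10.7 and 11 against 8.89 and 9.02).

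None of the 5 genes with the highest mean level had a KRAB pattern. ZNF207, a microtubule-binding partner of the spindle checkpoint protein BUB3, read 87.9 and 86.5 FPKM in shCtrl, 86.7 and 85.0 in shA3B, 63.7 and 67.4 in NC, and 74.1 and 74.4 in A3B OE. All 92.1 libraries were above all MEL290 libraries. ZNF706, a short protein with 1 finger, read 103 and 110 in shCtrl and 94.1 and 115 in shA3B, against 41.8 and 29.9 in NC and 33.1 and 41.4 in A3B OE. ZNF146, made almost entirely of fingers, was higher in MEL290, at 34.9 and 26.4 in shCtrl, 35 and 35.9 in shA3B, 66.6 and 65.3 in NC, and 70.3 and 75.7 in A3B OE. ZNF664 was nearly level across the series, from 44.3 to 58.3 FPKM. ZNF593, the counterpart of a yeast factor of large ribosomal subunit assembly, read 64.4 to 78.6 FPKM in 92.1 and 24.5 to 30.5 in MEL290.

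With A3B overexpression in MEL290, 11 of the 140 genes passed the test, 4 higher and 7 lower. That is 7.86% of them, against 17.8% of the 11611 genes tested and 16.3% of the symbols with the same floor. Split by direction, calls took in 10.3% of the tested genes upwards and 7.49% downwards. Calls are at an adjusted P under 0.05 from limma on log2(FPKM + 1), adjusted over all genes tested. The median difference over the 140 genes was 0.01 on the log2 scale, with 0.00 over all genes tested. The median size of a difference was 0.17 beside a median standard error of 0.13. For the symbols with the same floor these were 0.17 and 0.11, so the lower share of calls does not show smaller differences. Only ZNF503 reached a difference of 1. With the mean over libraries in place of the floor in each, 16 of 225 tested ZNF genes were called. The 5 added were ZNF550 at 1.12 and ZNF606 at 0.81 on the log2 scale, and ZNF516, ZNF697 and ZNF114 at -1.07, -0.60 and -0.57.

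Of the genes that rose, 3 lie on the long arm of chromosome 19 and carry KRAB. ZNF160 (chr19:53066606-53103434, minus strand, 20 fingers) read 7.5 and 10.9 FPKM in NC and 17 and 19.6 in A3B OE, a log2 difference of 0.94 (SE 0.18, adjusted P = 0.019). The 92.1 libraries read 8.0, 7.61, 9.09 and 10.0 FPKM, so both A3B OE libraries stood above every other library. ZNF302 (chr19:34677639-34686397, plus strand, 7 fingers) read 4.91 and 4.92 in NC and 9.27 and 10.0 in A3B OE, a difference of 0.85 (SE 0.12, adjusted P = 0.0081), and 4.75 to 5.68 in 92.1. ZNF382 (chr19:36604817-36634114, plus strand), a KRAB repressor described as silenced by promoter methylation in several tumours, read 5.57 and 4.79 in NC and 7.89 and 7.52 in A3B OE, a difference of 0.50 (SE 0.13, adjusted P = 0.048). It missed the threshold under 4 of the 9 other settings, quantile and upper quartile scaling among them, and its exons overlap ZNF529 on the opposite strand. ZNF367 (chr9:96385941-96418370, minus strand, 2 fingers, no KRAB) read 5.2 and 4.37 in NC and 8.51 and 8.54 in A3B OE, a difference of 0.72 (SE 0.13, adjusted P = 0.017). In 92.1 it read 7.1 to 8.15 FPKM, so NC was the group that stood low.

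The genes that fell included members with known roles. ZNF503 (chr10:75397830-75401764, minus strand), a developmental transcriptional repressor of the same small family as ZNF703, read 21.5 and 22.2 FPKM in NC and 10.8 and 9.62 in A3B OE, a log2 difference of -1.03 (SE 0.10, adjusted P = 0.0035). Its 92.1 libraries read 18.3 to 21.5, next to NC, so the A3B OE libraries stood apart from the other 6. Its exons overlap the antisense transcript ZNF503-AS2, which a kit blind to strand cannot separate. ZNF622 (chr5:16451519-16465800, minus strand), a maturation factor of the large ribosomal subunit, read 23.6 and 20.1 in NC and 15.9 and 13.6 in A3B OE, a difference of -0.54 (SE 0.13, adjusted P = 0.034). ZNF778 (chr16:89217703-89237141, plus strand), a KRAB gene, read 10.2 and 10.9 in NC, 6.04 and 5.28 in A3B OE, and 4.36 to 6.43 in 92.1, with a difference of -0.80 (SE 0.12, adjusted P = 0.011). Here NC was the high group, and the shCtrl libraries lay below those of A3B OE and shA3B, which overlapped. ZNF783 (chr7:149262171-149297302, plus strand), also with KRAB, read 6.73 and 6.71 in NC and 4.5 and 4.6 in A3B OE, a difference of -0.48 (SE 0.12, adjusted P = 0.044). It was far higher in 92.1, at 15.3 to 18.7 FPKM, and its call was lost whenever any of the 4 MEL290 libraries was left out.

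Chromosome 19 also held 3 of the genes that fell. ZNF561 (chr19:9604680-9621236, minus strand, KRAB, short arm) read 32.9 and 33.4 FPKM in NC and 21.6 and 19.9 in A3B OE, a log2 difference of -0.65 (SE 0.09, adjusted P = 0.0075). ZNF83 (chr19:52594060-52690559, minus strand, 14 fingers) read 43.1 and 45.3 in NC and 29.3 and 31.1 in A3B OE, a difference of -0.54 (SE 0.08, adjusted P = 0.011), which missed the threshold when all 8 libraries were fitted together (adjusted P = 0.092). Both stood well below these values in 92.1, ZNF561 at 8.16 to 11.3 FPKM and ZNF83 at 5.2 to 7.79. ZNF814 (chr19:57848731-57889074, minus strand, 23 fingers, KRAB) read 9.14 and 8.11 in NC and 5.55 and 6.05 in A3B OE, a difference of -0.50 (SE 0.13, adjusted P = 0.043). Its exons overlap those of ZNF587 on the opposite strand in the annotation, and the library kit did not mark strand, so reads from the overlapping stretch cannot be assigned to either gene. Calls also depended on single libraries: 3 genes were called without A3B OE replicate 2, 6 without A3B OE replicate 1, and 12 and 14 without NC replicates 1 and 2. In each of these fits 1 group is a single library, which is assumed to vary like the other group. ZNF503, ZNF561 and ZNF83 passed in all 4. Without A3B OE replicate 2 the calls of ZNF302 (0.80, adjusted P = 0.055) and ZNF778 (-0.72, adjusted P = 0.059) were lost, and without either A3B OE library those of ZNF160, ZNF367, ZNF382, ZNF622, ZNF814 and ZNF783. Without NC replicate 1 those of ZNF622, ZNF814 and ZNF783 were lost, and without NC replicate 2 those of ZNF382 and ZNF783.

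**Figure D2:**
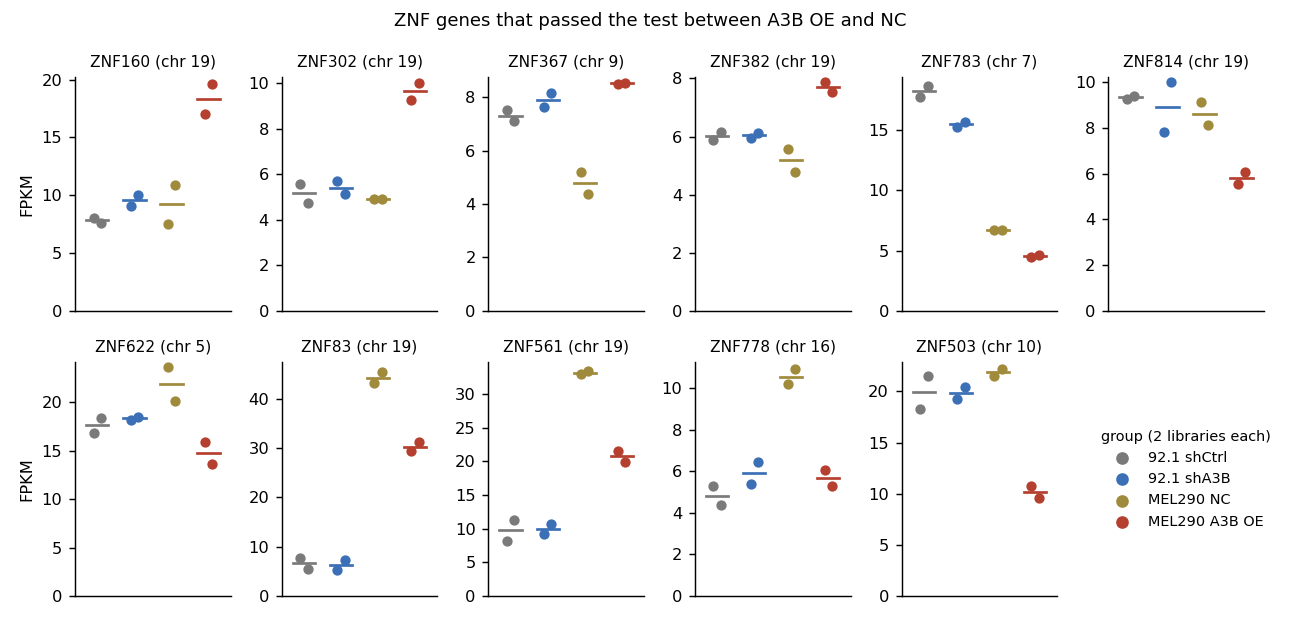
FPKM in each library (points, 2 per group) and group means (bars) for the 11 genes that passed the test between A3B OE and NC, ordered from the largest rise to the largest fall, each on its own axis from 0. The NC and A3B OE points do not overlap in any panel, which picking the genes by this test all but fixed in advance. Over all genes tested, both A3B OE libraries lay above both NC libraries for 31.5% and below for 29.7%. In 8 of the 11 panels (all but ZNF778, ZNF561 and ZNF83) the A3B OE points lie above or below those of all other libraries. The share of all genes that do so was not counted.

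Promoter sequence was available in RefSeq (GRCh38.p14) for 118 of the 140 genes, here as the 250 bases before the first listed start. Their median GC content was 64.4% and their median count of CG dinucleotides was 21, against 58.0% and 11 over 27195 promoters of all genes and 59.0% and 16 over 312 promoters of the other ZNF genes. Short motifs were searched on both strands. CCGGAAGT, the core bound by ETS factors, was in 16.9% of the 118 promoters, 3.65% of all promoters and 10.9% of those of other ZNF genes. ACTACAA, part of the site bound by ZNF143, itself among the 140, was in 9.32%, 2.63% and 3.53%. The cyclic AMP response element TGACGTCA was in 6.78%, 1.77% and 1.6%, and GCATGCGC, part of the NRF1 site, in 7.63%, 2.82% and 4.17%. AAGATGG, part of the YY1 site, was in 2.54%, 3.77% and 4.17%. CCAAT was in 33.1% of them, 33.0% of all and 51.6% of those of other ZNF genes, and TATAAA in 2.54%, 11.1% and 3.21%. By position, CCGGAAGT was in 10 of 41 promoters on chromosome 19 and 10 of 77 elsewhere. None of the motifs contains another, though GC content and CG count differ between these sets of promoters. The 140 genes were chosen for expression in every library and the sets beside them were not. Promoters of the other symbols that met the floor were not compared, so these shares cannot be read as particular to ZNF genes. A match of letters is a description and was not tested as a binding site.

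Below are promoters of genes called in MEL290, read 5′ to 3′ on the strand of the gene, with motif matches in capitals. Chosen were the neighbours that moved in opposite directions (ZNF160 and ZNF83) and 3 of the 4 that held a motif (ZNF561, ZNF814 and ZNF622). ZNF302 and ZNF503 were added because they passed the test of the difference of effects, defined further below. ZNF561 held TGACGTCA starting 23 bases before the start, ZNF622 held CCGGAAGT starting 14 bases before it, and ZNF814 held the same motif on the opposite strand, starting 26 bases before it. ZNF367, not printed, held CCAAT at 185 bases before the start and, on the opposite strand, at 108. The other 4 printed held none of the 7 motifs, and their positions are chr19:53103423-53103672 and chr19:52690497-52690746 (minus strand), chr19:34677428-34677677 (plus strand) and chr10:75401917-75402166 (minus strand). ZNF561, ZNF814 and ZNF622 are at chr19:9621233-9621482, chr19:57889038-57889287 and chr5:16465801-16466050, all on the minus strand.
ZNF160 promoter: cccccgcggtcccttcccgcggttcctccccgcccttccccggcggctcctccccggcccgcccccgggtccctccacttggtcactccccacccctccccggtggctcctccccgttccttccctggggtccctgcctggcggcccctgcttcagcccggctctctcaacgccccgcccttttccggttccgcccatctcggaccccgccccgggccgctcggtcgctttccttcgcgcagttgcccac
ZNF83 promoter: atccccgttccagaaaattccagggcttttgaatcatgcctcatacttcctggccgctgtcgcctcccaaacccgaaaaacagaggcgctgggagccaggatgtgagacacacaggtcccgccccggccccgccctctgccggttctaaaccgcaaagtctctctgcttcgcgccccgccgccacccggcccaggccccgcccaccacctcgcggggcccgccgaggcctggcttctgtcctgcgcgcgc
ZNF302 promoter: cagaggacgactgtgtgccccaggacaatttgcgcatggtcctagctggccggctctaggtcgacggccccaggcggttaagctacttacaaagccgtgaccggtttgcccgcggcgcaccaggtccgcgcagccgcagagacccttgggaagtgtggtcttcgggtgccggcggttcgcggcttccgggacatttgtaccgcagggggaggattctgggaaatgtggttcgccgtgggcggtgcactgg
ZNF503 promoter: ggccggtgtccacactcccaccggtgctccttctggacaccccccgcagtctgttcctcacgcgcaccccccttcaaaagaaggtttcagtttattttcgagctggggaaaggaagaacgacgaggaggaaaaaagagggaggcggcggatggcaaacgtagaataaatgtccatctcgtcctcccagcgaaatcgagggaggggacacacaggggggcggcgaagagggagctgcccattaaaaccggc
ZNF561 promoter: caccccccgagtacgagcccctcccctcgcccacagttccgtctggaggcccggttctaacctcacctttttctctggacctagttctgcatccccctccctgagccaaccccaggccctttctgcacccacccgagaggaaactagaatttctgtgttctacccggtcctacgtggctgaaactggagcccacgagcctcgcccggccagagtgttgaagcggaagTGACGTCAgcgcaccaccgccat
ZNF814 promoter: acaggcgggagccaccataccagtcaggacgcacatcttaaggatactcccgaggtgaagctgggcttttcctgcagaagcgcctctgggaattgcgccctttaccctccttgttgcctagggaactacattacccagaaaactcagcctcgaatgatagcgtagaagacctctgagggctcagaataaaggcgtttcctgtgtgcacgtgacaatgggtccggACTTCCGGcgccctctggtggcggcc
ZNF622 promoter: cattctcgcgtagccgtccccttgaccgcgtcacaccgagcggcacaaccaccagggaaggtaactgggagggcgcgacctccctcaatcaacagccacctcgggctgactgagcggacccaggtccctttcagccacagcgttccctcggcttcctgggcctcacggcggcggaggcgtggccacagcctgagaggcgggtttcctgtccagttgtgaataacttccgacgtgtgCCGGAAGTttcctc

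In MEL290 the chromosome 19 genes stood higher with A3B overexpression more often than the others. Of the 46, 37 had a higher mean in A3B OE whatever their P, and the median log2 difference was 0.16, with quartiles of 0.03 and 0.28. Of the 94 on other chromosomes, 37 were higher and the median was -0.08, with quartiles of -0.23 and 0.06. Both A3B OE libraries lay above both NC libraries for 24 of the 46 genes, 52.2%, and below for 3, while for the other 94 genes the counts were 14 and 35. Over all genes tested the shares were 31.5% above and 29.7% below. On the long arm 31 of 38 genes were higher, with a median of 0.18, and on the short arm 6 of 8, with a median of 0.05. Within chromosome 19, 20 of 26 KRAB genes were higher (median 0.18) and 17 of 20 of the rest (median 0.15). On other chromosomes, 6 of 25 KRAB genes were higher, with a median of -0.14, and 31 of 69 without KRAB, with a median of -0.05.

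The other genes of the long arm of chromosome 19 moved the same way. Leaving out all ZNF symbols, 326 genes of the long arm were tested in MEL290, 81.0% were higher in A3B OE, their median was 0.26, and 109 were called, 95 of them higher. On the short arm the median of 318 such genes was 0.02. The direction of the long arm zinc finger genes was thus also that of their neighbours outside the family. Estimated sequencing depth also differed between the groups, at about 17 and 20.4 M fragments in NC and 26.9 and 22.4 in A3B OE, and its part in the result was not tested. Across the 140 genes the difference had a Spearman correlation of -0.05 with transcript GC content and -0.16 with transcript length, given as a description over genes that share libraries.

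Along chromosome 19, the 46 genes fell into 10 groups separated by at least 1 Mb. The largest, at the end of the long arm (chr19:55576774-58431736), held 18 genes with differences from -0.50 to 0.43, a median of 0.11 and 14 higher. In the group of ZNF576, ZNF428, ZNF45, ZNF224, ZNF226 and ZNF227 (chr19:43596392-44237268), all 6 were higher, from 0.10 to 0.32, and none was called. In the group of ZNF480, ZNF83 and ZNF160 (chr19:52297169-53103434), neighbours differed most, from -0.54 for ZNF83 to 0.94 for ZNF160. Of the 10 groups, 4 held a single gene, and direction was mixed within 4 of the other 6.

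**Figure D3:**
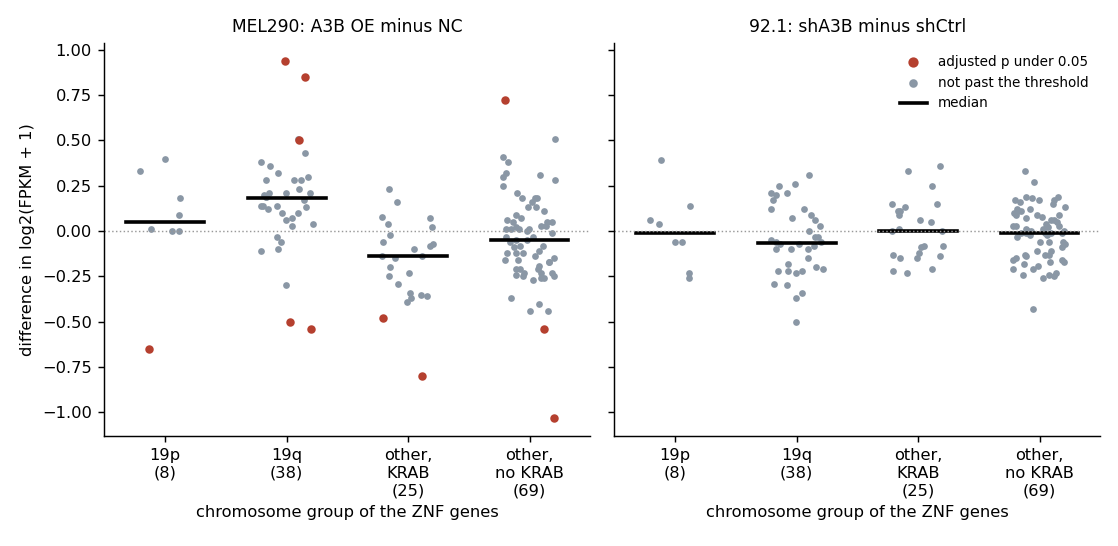
Difference in log2(FPKM + 1) for each of the 140 genes, A3B OE minus NC in MEL290 (left) and shA3B minus shCtrl in 92.1 (right), split into the short and long arms of chromosome 19 and other chromosomes with or without a KRAB pattern, with medians as bars and genes past the threshold in red. On the left the long arm genes have a median of 0.18 and the KRAB genes of other chromosomes -0.14, and on the right no gene passed the threshold and all 4 medians lie between -0.06 and 0.00.

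A3B depletion in 92.1 left no call among the 140 genes, where limma called 1 of 11605 genes tested, 0.00862%, and that gene was APOBEC3B itself. At an unadjusted P under 0.05 there were 5 of the 140, 3.57%, beside 2.9% of all genes. No other setting that was run called any of them. The 2 lowest differences were ZNF264 at -0.50 (95% interval -0.87 to -0.13) and ZNF609, a regulator that binds the cohesin loader NIPBL, at -0.43 (-0.76 to -0.09). ZNF264 read 6.76 and 7.57 FPKM in shCtrl and 4.29 and 5.29 in shA3B, and ZNF609 read 15.8 and 14.3 against 11.8 and 10.1. Neither pair of groups overlapped. Both were among the least repeatable genes in MEL290, ZNF264 at 13.0 and 4.94 FPKM in NC and ZNF609 at 19.8 and 10.9 in A3B OE. The 2 highest were ZNF559 at 0.39 (0.02 to 0.75), reading 6.43 and 7.6 in shCtrl and 8.5 and 10.5 in shA3B, and ZNF268 at 0.36 (-0.04 to 0.76), with 7.49 and 5.41 against 9.23 and 7.78. ZNF268 alone of the 4 has an interval that includes 0.

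In 92.1 the 46 chromosome 19 genes had a median of -0.06 with 18 higher in shA3B, and the other 94 a median of 0.00 with 47 higher. Both shA3B libraries lay above both shCtrl libraries for 8 and below for 10 of the 46, where 15.3% and 13.3% of all genes tested did so. Other long arm genes of chromosome 19 had a median of -0.10 in 92.1, and 59 of 315 were higher. Other short arm genes were much the same there, with a median of -0.08 and 86 of 349 higher, so this shift was not particular to the long arm. Measured as the group with more A3B against the group with less, 21 of the 46 were higher in both lines, 2 were lower in both and 23 went opposite ways. The direction was the same in both lines for 23 of these 46, for 50.7% of the 140 and for 48.6% of all genes tested in both. The 2 contrasts share no library. Their Pearson correlation was -0.25 and Spearman's rho -0.31 over the 46 genes, and -0.01 and 0.01 over the 140, a description over genes that share depth and libraries within each contrast. The difference of effects is the MEL290 difference (A3B OE minus NC) minus the 92.1 difference (shA3B minus shCtrl). A3B goes up in the first and down in the second, so genes that follow A3B alike in both lines also give such a difference. The median difference of effects was 0.26 for the chromosome 19 genes and -0.06 for the others. It was 0.34 for other long arm genes of chromosome 19, whose medians were 0.26 in MEL290 and -0.10 in 92.1. For other short arm genes it was 0.11, with medians of 0.02 and -0.08.

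The test of that difference of effects called 3 of the 140 genes, 2.14%, beside 4.4% of all genes tested. ZNF503 differed by -1.03 (SE 0.16, adjusted P = 0.016), with 18.3 and 21.5 FPKM in shCtrl and 19.3 and 20.4 in shA3B beside its fall in MEL290. ZNF778 differed by -1.05 (SE 0.20, adjusted P = 0.028), with 5.27 and 4.36 in shCtrl and 5.37 and 6.43 in shA3B. ZNF302 differed by 0.79 (SE 0.17, adjusted P = 0.045), with 5.56 and 4.75 against 5.68 and 5.14. With 1 library left out, between 0 and 2 genes were called, and 0 when any MEL290 library or shA3B replicate 2 was the one left out.

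The lines themselves differed far more than either perturbation moved these genes. Between the control libraries, NC minus shCtrl, 80 of the 140 were called, 57.1%, with 25 higher and 55 lower in MEL290, whereas the test called 74.9% of all 12697 genes in it, with 34.8% up and 40.1% down in MEL290. Of the symbols with the same floor, 71.4% were called. The median over the 140 was -0.16, beside -0.07 over all genes tested. Cell line, vector and control type change together here, and the tables of the 2 lines carry different column headers, so separate processing cannot be told apart from line. The contrast uses the same NC and shCtrl libraries as the perturbation contrasts. In all 4 libraries of a line, 92.1 stood above MEL290 for 58 genes and MEL290 above 92.1 for 28, 41.4% and 20% of the 140, and 54 overlapped. Over all genes tested these shares were 39.3% and 33.5%. The floor excludes genes that were nearly silent in 1 line, such as ZNF320 and ZNF704, listed at 0 in all MEL290 libraries and at 9.46 to 13.1 and 24.1 to 33.6 FPKM in 92.1. With the mean as the rule, 147 of 227 genes were called, 48 higher and 99 lower.

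Among the genes higher in MEL290, ZNF83 led, at 7.79 and 5.46 FPKM in shCtrl and 43.1 and 45.3 in NC, a log2 difference of 2.58 (SE 0.18, adjusted P = 3.5e-06). ZNF226, a KRAB gene of the long arm of chromosome 19 (chr19:44165073-44178381), read 7.0 and 6.59 against 27.6 and 34.3, a difference of 2.03 (SE 0.13, adjusted P = 2.2e-06). ZNF217, an oncogene that works with a histone demethylase corepressor complex (chr20:53567071-53609907), read 5.47 and 4.6 against 24.6 and 22.7, a difference of 2.03 (SE 0.12, adjusted P = 1.4e-06). ZNF561 followed at 1.68 (SE 0.15, adjusted P = 1.6e-05). For these 4 genes all MEL290 libraries lay above all 92.1 libraries, A3B OE included.

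The genes lower in MEL290 were led by ZNF358 (chr19:7515292-7521025), at 50.6 and 51.9 FPKM in shCtrl and 11.2 and 12.4 in NC, a log2 difference of -2.03 (SE 0.11, adjusted P = 7.1e-07). Removing the trend with transcript GC content and length moved it to -1.0, still past the threshold. ZNF362 (chr1:33256492-33300719) read 23.1 and 28.4 against 5.98 and 6.61, a difference of -1.87 (SE 0.14, adjusted P = 4.9e-06). ZNF623 read 25.4 and 22.7 against 6.96 and 7.48, a difference of -1.61 (SE 0.11, adjusted P = 2.9e-06). ZNF511 (chr10:133308914-133313162) read 30.2 and 27.9 against 8.12 and 10.4, a difference of -1.56 (SE 0.13, adjusted P = 8e-06). Of its 75-base windows, 42.9% also occur in the read-through gene ZNF511-PRAP1 and 13.3% of those of ZNF358 in another annotated gene, so reads of these may have been divided by the authors' counting.

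**Figure D4:**
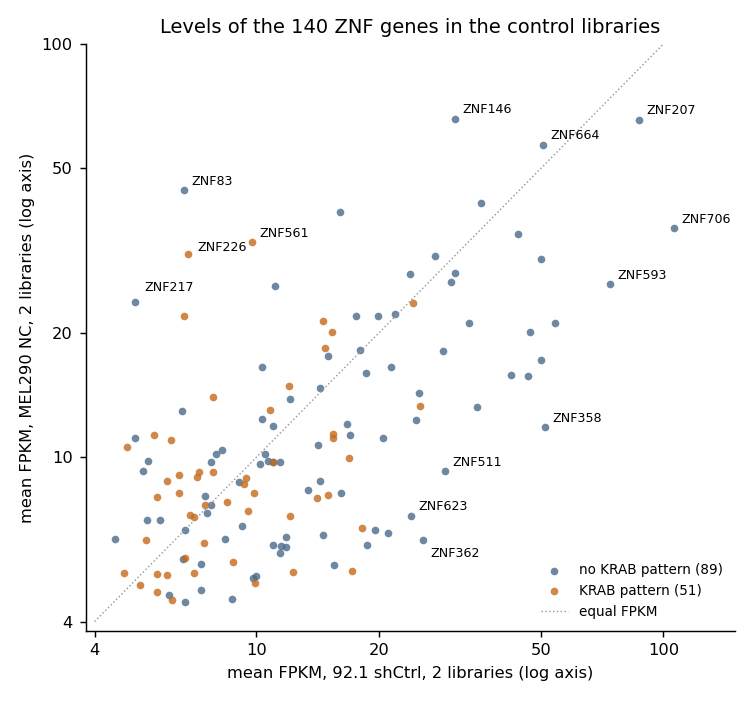
Mean FPKM of each of the 140 genes in the 2 shCtrl libraries of 92.1 (x axis) and the 2 NC libraries of MEL290 (y axis), both on log axes, with KRAB genes in orange, the others in blue and equal levels dotted. ZNF83, ZNF226, ZNF217 and ZNF561 lie far above the line of equality, ZNF358, ZNF362, ZNF511 and ZNF623 far below it, and most of the blue points lie below the line.

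The direction of the line difference varied with the KRAB pattern and with chromosome. Of the 89 genes without a match to the pattern, 56 were called (62.9%), 12 higher and 44 lower in MEL290, with a median of -0.33. Of the 51 with a match, 24 were called (47.1%), 13 higher and 11 lower, with a median of -0.06. Both shares were below the 74.9% of all genes tested, 34.8% higher and 40.1% lower, and the 71.4% of the symbols with the same floor. Transcript GC content moved with this: its Spearman correlation with the line difference was -0.45 over the 140 genes, a description, and its part was not tested. On chromosome 19, 11 were called higher and 12 lower, 50% of the 46 genes there and also below the share of all genes tested. The 7 genes of chromosome 8, singled out after their values were seen, were ZNF7, ZNF251, ZNF395, ZNF623, ZNF703, ZNF706 and ZNF707. All 7 were called lower in MEL290, from -0.76 to -1.61 with a median of -1.19. For each of them every 92.1 library lay above every MEL290 library, as was so for 39.3% of all genes tested. The call of ZNF707 was lost once the trend with GC content and length was removed, its difference moving from -0.85 to -0.30, and also without NC replicate 1 (-0.54) or shCtrl replicate 1 (-0.80), and ZNF703 moved from -1.41 to -0.70. The 424 other chromosome 8 genes had a median of -0.79, with 281 called lower and 71 higher.

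**Figure D5:**
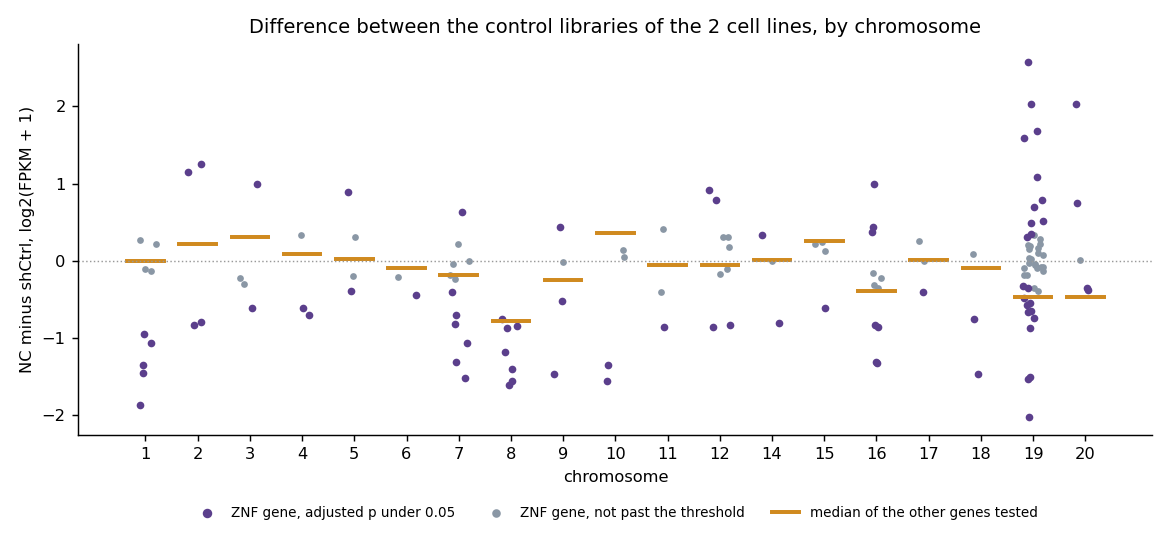
NC minus shCtrl in log2(FPKM + 1) for each of the 140 genes, by chromosome, with genes past the threshold in purple, others in grey and the median of all other tested genes of that chromosome as an orange bar. All 7 chromosome 8 genes lie below 0, where the median of the other genes is -0.79, while chromosome 19 genes spread from -2.03 to 2.58.

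Genes with a chromatin or transcription role, an RNA or ribosome role, or a genome stability or mitosis role were read from lists of known functions. The first list includes repressors, among them ZNF503 and the KRAB genes ZNF274 and ZNF445. Of the 24 genes here with a chromatin or transcription role, 1 was called in MEL290, ZNF503, none in 92.1, and 11 between the control lines, 3 higher and 8 lower in MEL290. These are 4.17% in MEL290 and 45.8% between the lines, beside 17.8% and 74.9% of all genes tested. Beside ZNF217 and ZNF146, ZNF148, which binds GC-rich promoters, was the other one higher, at 0.99, or 0.58 once the trend with GC content and length was removed. Of the 3 related genes of a chromatin reader complex, ZNF687 and ZNF532 were lower in MEL290, by -1.07 and -1.47, and ZNF592 was not called at 0.24. The others lower were ZNF703 (-1.41), ZNF395 (-1.19), ZNF24 (-0.76), ZNF518B (-0.62), ZNF76 (-0.45) and ZNF335 (-0.35), the last of which is tied to a histone methyltransferase complex. ZNF335 turned to 0.10 and ZNF76 to -0.07, neither called, once the same trend was removed. ZNF76 also lost its call without NC replicate 1 (-0.28) or shCtrl replicate 2 (-0.37), and ZNF335 without either NC library (-0.35 in both fits) or shCtrl replicate 2 (-0.27). ZNF335 read 6.83 and 7.81 FPKM in shCtrl and 5.52 and 5.5 in NC.

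Of the 8 genes with an RNA or ribosome role, ZNF622 was called in MEL290, and 6 were called between the lines. The latter is 75%, about the 74.9% of all genes tested, and 1 of 8 is 12.5%, beside 17.8%. ZNF638, a nuclear DNA and RNA binding protein that silences unintegrated retroviral DNA, was higher in MEL290, at 17.6 and 14.3 FPKM in shCtrl and 42.1 and 36.5 in NC, a log2 difference of 1.25. The other 5 were lower. ZNF598, the ubiquitin ligase that marks collided ribosomes, read 50.3 and 58.1 against 20.1 and 22.2, a difference of -1.32 that moved to -0.62 once the trend with GC content and length was removed. ZNF593 differed by -1.46, or -0.93 after the same correction, ZNF385A by -0.83, ZNF106 by -0.62 (-0.48 and not called without NC replicate 2) and ZNF346, a double-stranded RNA binding protein, by -0.39. ZNF346 missed the threshold under 7 of 9 other settings and in 6 of 8 fits without 1 library, all but those without an A3B OE library, and ZNF385A missed it, at -0.23, once the GC and length trend was removed. Of the 2 with a genome stability or mitosis role, ZNF451 and ZNF207, neither was called for a perturbation, and ZNF207 was lower in MEL290, at a log2 difference of -0.41 that became -0.82 once the trend with GC content and length was removed.

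The machinery that KRAB proteins act through was read from a list of 22 genes, all tested. In MEL290, 7 were called, 31.8% beside 17.8% of all genes tested, all higher with A3B overexpression, where 10.3% of all genes were called higher. The median was 0.20. TRIM28, the corepressor that KRAB binds and itself a gene of the long arm of chromosome 19, read 255 and 245 FPKM in NC and 388 and 342 in A3B OE, a difference of 0.54 (SE 0.08, adjusted P = 0.0094). UHRF1 and DNMT1, which maintain DNA methylation, were higher by 0.62 and 0.55, CHD3, a remodeller TRIM28 recruits, by 0.51, the heterochromatin protein gene CBX5 by 0.39, and the deacetylase genes HDAC1 and HDAC2 by 0.37 and 0.35. CBX5 lost its call when any MEL290 library was left out, and HDAC1 and HDAC2 when any but NC replicate 2 was. UHRF1 lost it without either A3B OE library, and DNMT1 without A3B OE replicate 1. Under the 9 other settings with all libraries kept, CBX5 and HDAC2 missed the threshold in 5 and HDAC1 in 3. TRIM28, DNMT1 and UHRF1 missed it in 1, without a filter on low FPKM, and CHD3 passed in all. SETDB1 read 14 and 12.7 in NC and 12 and 14.7 in A3B OE and was not called. In 92.1 none of the 22 was called, and TRIM28 read 291 and 335 FPKM in shCtrl and 288 and 286 in shA3B.

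Other zinc finger families with the same floor were few. Of 18 ZBTB genes, 2 were called in MEL290, both lower, and the median was -0.04. Of 8 ZSCAN and ZKSCAN genes and 8 ZFP genes, 2 each were called, 1 in each direction, with medians of 0.08 and 0.10. None of these was called in 92.1, and 11, 6 and 6 were called between the control lines. The shares were 11.1%, 25% and 25% in MEL290, beside 17.8% of all genes tested, and 61.1%, 75% and 75% between the lines, beside 74.9%. The ZNF symbols outside the 140 that could be tested had a median of 0.08 in MEL290, with 23 of 233 called, and -0.44 between the lines, with 212 of 300 called.

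Replicates bounded what could be seen. Within a group, the 2 libraries of a gene differed by a median of 0.11 to 0.18 on the log2 scale, and by over 1.5 times for 8 genes in shCtrl, 1 in shA3B, 6 in NC and 5 in A3B OE. The widest gaps were ZNF264 in NC (2.63 times) and ZNF780A in shCtrl (2.23 times). Reads of close relatives add a further limit: 5 of the 140 genes shared at least 10% of their 75-base windows with another coding gene, ZNF417 and ZNF587 with each other, and 48 had an exon that overlaps an exon of another coding gene.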

How the data were processed

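Total RNA from 2 libraries in each of 4 groups was sequenced as paired ends with a kit that does not mark strand. The authors aligned reads to GRCh38 with STAR and deposited FPKM per gene symbol from Cufflinks, 1 table per library, with no counts, so depth could only be estimated, roughly, from the steps of low values (17 to 30.9 M fragments). Groups followed the sample titles. Levels were compared with limma 3.58.1 (R 4.3.3, trend, two-sided) on log2(FPKM + 1) for genes with at least 1 FPKM in at least 2 fitted libraries, since the study's Cuffdiff needs reads. P values were Benjamini-Hochberg adjusted over all genes tested. Fold changes on this scale understate those of low genes. Each perturbation was fitted within its line, and the line difference and difference of effects over all 8 libraries. Scripts were tested on simulated data. Positions, transcripts and motif patterns for fingers, KRAB and SCAN came from GENCODE 44, where all 505 ZNF symbols matched, and the arm boundary was set at 26 Mb. Named genes were the 5 with highest mean, called members with the largest changes (up to 8 each way in MEL290, 4 between lines), the 2 extremes each way in 92.1, called role list members, and 3 genes on each side of the floor. The genes and lists were chosen with earlier results of these data known. Epithelial, endothelial and leukocyte marker sums were at most 2.76, 0.115 and 35 FPKM, the last from CD68. Same-numbered libraries deviated together with r = 0.193 in 92.1 and -0.0295 in MEL290, over 2 pairs each, so they were not treated as paired. Alternatives changed the pseudocount, filter, scaling, trend, block, GC and length correction, floor, fold minimum and libraries.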

Additional observations from a re-analysis of the deposited data

Results flagged for a closer look

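For 3 of the well-expressed ZNF genes, the effect in MEL290 (A3B OE minus NC) differed from the effect in 92.1 (shA3B minus shCtrl) by limma's test of the difference itself. The difference was -1.05 for ZNF778, -1.03 for ZNF503 and 0.79 for ZNF302 on the log2 scale. With each library left out in turn, the call of ZNF503 was lost in 5 of 8 fits, that of ZNF778 in 7 of 8 and that of ZNF302 in all 8, with the direction kept throughout. Outside the 140 genes the same test passed for TRIM28 (0.67), for ZNF550 (1.20), whose libraries read 0.581 and 0.479 FPKM in NC and 1.92 and 2.78 in A3B OE, and for the targeted gene APOBEC3B (6.55). Cell line and kind of perturbation change together in this comparison and cannot be told apart. The 2 perturbations also move A3B in opposite directions, by 3.08 in MEL290 and -3.47 in 92.1 for APOBEC3B itself. Passing this test alone therefore does not show that the lines answer A3B differently.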

How the results depend on the processing

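Counts of called genes depended on settings, and a changed floor also changed the number of genes counted from 140 to 236 (floor of 2 FPKM), 57 (floor of 8) or 227 (mean rule). In MEL290 (11 called) the count was 4 without a filter, 1 at a log2 difference of at least 1, 3 with a floor of 8 FPKM, and 3 to 14 with a library left out. In 92.1 it was 0 throughout. Between control lines (80 called) it was 28 at a log2 difference of at least 1, 140 with a floor of 2 FPKM, 32 with a floor of 8, 147 with the mean rule, and 70 to 83 with a library left out. For the difference of effects (3 called) it was 5 with the GC and length trend removed, 1 without a filter, 1 with a floor of 8, and 0 to 2 with a library left out.

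Median differences shifted by at most 0.10 in the fits given here. For MEL290, quantile normalization gave -0.02 in place of 0.01, and the chromosome 19 median stayed between 0.14 and 0.20 in all fits. A floor of 8 FPKM gave -0.06 for all members and -0.16 for chromosome 19 in 92.1. Between lines the median of -0.16 became -0.12 with quantile normalization, -0.10 with upper quartile scaling and -0.21 with the mean rule, and on chromosome 19 that of -0.03 became 0.03 and 0.04 with the last pair. For the difference of effects, a floor of 8 gave 0.08 in place of 0.03, and the chromosome 19 median of 0.26 became 0.16 with the GC and length trend removed and 0.18 with a floor of 2. With a library left out, medians ran from -0.01 to 0.03 and 0.15 to 0.20 on chromosome 19 in MEL290, -0.05 to 0.01 and -0.05 to -0.01 in 92.1, -0.20 to -0.15 and -0.07 to 0.03 between lines, and -0.02 to 0.06 and 0.17 to 0.29 for the difference of effects.

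A replicate block gave 8 calls in MEL290 (ZNF382, ZNF783 and ZNF814 were lost, as were CBX5, HDAC1 and HDAC2 of the corepressor list), 0 in 92.1, 66 between lines and 1, ZNF503, for the difference of effects. Library numbers were not shown to pair. Of named gene values under other settings, 444 of 492 kept their direction and side of the threshold, 47 lost the call and 1 reversed, ZNF335 between lines at 0.10 with the GC and length trend removed. With a library left out, 285 of 352 kept both, 66 lost the call and 1 gained it. The causes were not tested. Depth limits what the 2 libraries per group can show, and a difference of effects could only be seen when large.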
